A study of Mus musculus with 2 samples.

Results

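Chromosome 11 carried 743 of the 9095 NELF-B regions found in mouse embryonic fibroblasts, or 8.17% of the list. Its members were taken by chromosome alone, so the height, width or spacing of a region did not decide whether it was a member. The chromosome itself was chosen with earlier results of these data known. They are compared with the 8142 regions of the other 18 autosomes, pooled, and X was left out. The cells are fibroblasts from a Nelf-b f/- embryo, which has 1 floxed and 1 deleted allele, on a background that mixes 129/SvJ, C57BL/6 and FVB. They were dividing without synchronisation in 10% serum and were fixed for 15 min in 1% formaldehyde. Chromatin was precipitated with a purified polyclonal antibody to Nelf-b, and sequencing of the pulled-down DNA (ChIP-seq) gave the list. The floxed allele was not described as recombined, and the number of embryos was not given in the sources used here. The series has 1 NELF-B library and 1 input library, and the input gave no values here. With no replicate, no value has a replicate error and no p-value is given. Intervals are exact 95% intervals that cover counting error over regions only and treat neighbouring regions as independent.

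NELF-B belongs to the negative elongation factor, a complex of several subunits. It binds RNA polymerase II soon after it starts a transcript and, together with the factor DSIF, holds it in a paused state near the promoter. The kinase P-TEFb releases the pause, and NELF then leaves the polymerase. Maps of NELF are therefore known for narrow peaks just downstream of active start sites. Mouse chromosomes have their centromere at the end where coordinates begin, so low positions lie near the centromere and high positions near the far telomere.

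Besides its start and end, each region has a summit with a position and a height. The height is a whole number set by the authors, in a unit they did not state in the material at hand, and heights are compared only within this list. Sequencing depth is unknown. Positions are those of the deposited file, whose genome build was not given in the sources used here. For that reason no gene is assigned to a region and no sequence is printed.

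Chromosome 11 was the most gene-dense autosome. The gene table used here, of assembly GRCm38.p6, gives it 1526 protein-coding genes other than olfactory and vomeronasal receptor genes. Over the 121.7 Mb that end with its last region, this is 12.5 genes per Mb. The other autosomes had 5.61 to 10.6 genes per Mb, so chromosome 11 ranked 1 of 19. Its NELF-B regions were also the densest, at 1.76 times the pooled density of the other autosomes, 3.47 per Mb (interval of the ratio 1.63 to 1.89). Its ratio of genes per Mb was 1.66. Per 100 genes, chromosome 11 had 48.7 regions (45.3 to 52.3) and the other autosomes 46.1 (45.1 to 47.1), and the interval of this ratio, 0.979 to 1.14, held 1. By regions per gene chromosome 11 thus ranked 6 of 19, inside the range of 36.6 to 53.1 of the others.

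The regions of chromosome 11 were ordinary in median width and in summit position. Their median width was 1156 bp (1131 to 1182), with quartiles of 959 and 1441 bp, and the widths ran from 499 to 3491 bp. The median over the other autosomes was 1137 bp (1129 to 1146), and the 2 intervals overlapped. Regions wider than 2 kb made up 5.65% (4.10 to 7.56) on chromosome 11 and 4.05% (3.64 to 4.50) elsewhere, also with overlapping intervals. The median summit lay at 48.6% of the width on chromosome 11 and at 48.6% elsewhere. A summit in the outer 20% at either edge was found in 14 of the 743 regions, or 1.88% (1.03 to 3.14), against 1.72% (1.45 to 2.03) elsewhere. Together the regions covered 927 kb, or 0.762% of the chromosome, the highest share among the 19 autosomes.

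Heights on chromosome 11 ran from 16 to 575, with quartiles of 33 and 72. The median was 47 (45 to 50), against 44 (44 to 45) on the other autosomes, a ratio of 1.07. This small excess was not even along the chromosome: the first 50% of its regions in order of position had a median 0.977 times that of the other autosomes, and the second 50% had 1.17 times.

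The difference was wider among tall regions. A height of at least 93 places a region among the tallest 10% of the list, which holds 911 regions (10.0% of 9095, ties kept). Chromosome 11 had 112 of them, or 15.1% of its regions (12.6 to 17.9), against 9.72% (9.08 to 10.4) on the other autosomes. Only chromosomes 8 and 6 had larger shares, at 18.1% (15.0 to 21.6) and 16.7% (13.5 to 20.3), and both intervals overlapped that of chromosome 11. At a height of at least 228, the tallest 1% (1.00% of the list), chromosome 11 had 16 of 91 regions. These were 2.15% of its regions (1.24 to 3.47), against 0.909% (0.714 to 1.14) elsewhere, and only chromosome 13 had a larger share, 3.29%. The tallest 10% held 37.6% of the summed height on chromosome 11 and 25.6% elsewhere.

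**Figure D1:**
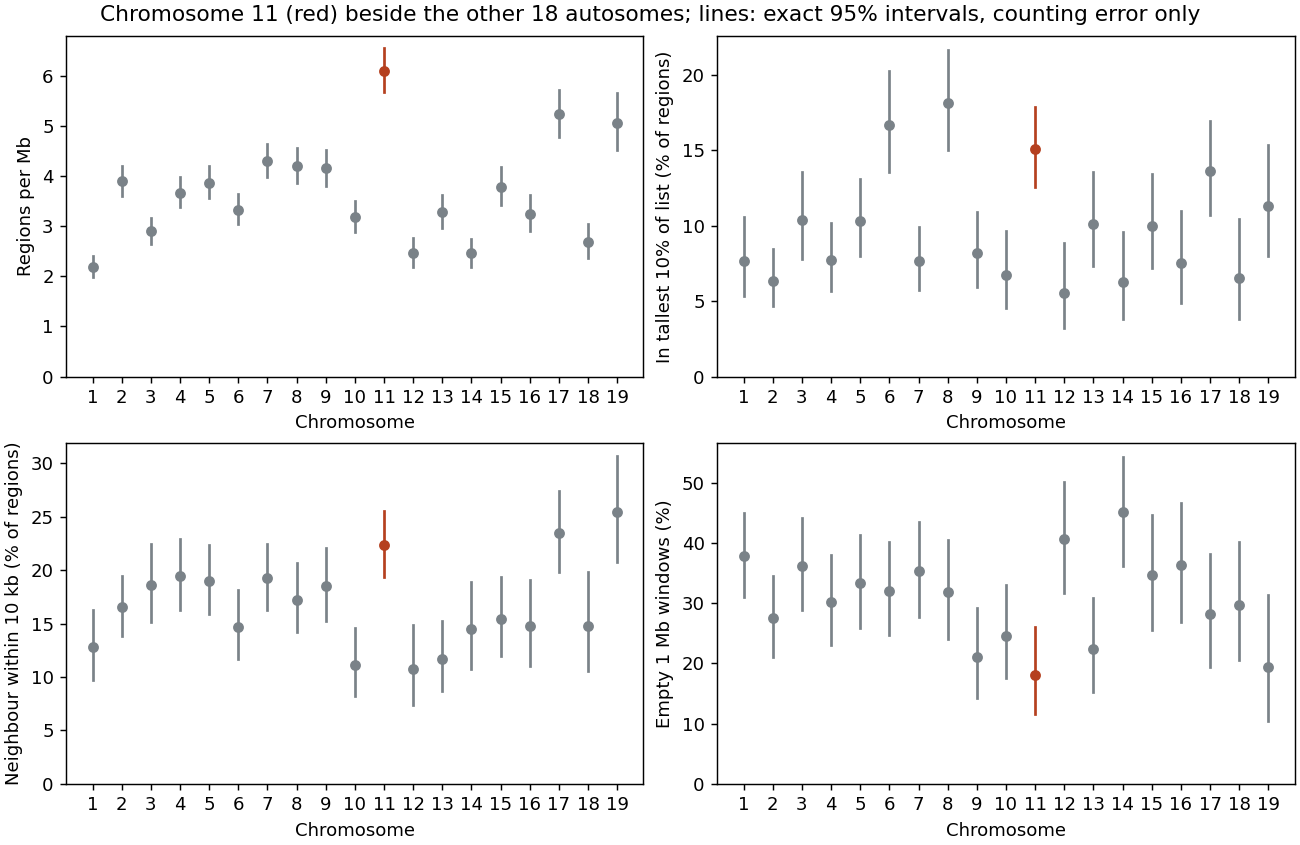
Regions per Mb, share of regions among the tallest 10% of the list, share with another region within 10 kb, and share of 1 Mb windows without a region, for each of the 19 autosomes. Points are values, lines are exact 95% intervals and chromosome 11 is red; it is highest in density at 6.10 per Mb and lowest in empty windows at 18.0%, while chromosomes 6 and 8 have larger shares of tall regions and chromosomes 17 and 19 larger shares with a close neighbour.

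Along the chromosome, regions were frequent in a short part next to the centromere, few from 10 to 50 Mb and frequent again from there to the telomere. The second 50% of the length held 518 of the 743 regions, or 69.7% (66.3 to 73.0). The same share over the other autosomes was 57.5% (56.4 to 58.5), but single chromosomes ranged from 33.2% on chromosome 16 to 78.5% on chromosome 15, and 3 of them exceeded chromosome 11. In blocks of 10 Mb, density on chromosome 11 went from 5.10 per Mb in the first block (3.80 to 6.71) to 1.70 to 3.70 per Mb in the next 4. The first block includes the 3.02 Mb before the first region, and no other autosome had a region that near its start. From 50 Mb on density did not go below 6.40 per Mb. The block from 100 to 110 Mb reached 10.6 per Mb (8.68 to 12.8). The last stretch, 1.71 Mb from 120 Mb to the final region, held 37 regions, or 21.6 per Mb (15.2 to 29.8).

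Tall regions followed another pattern than density. In the first 10 Mb, 17 of 51 regions were among the tallest 10% of the list, or 33.3% (20.8 to 47.9). From 50 to 80 Mb density was above that of the other autosomes. There 3 of 75 regions were that tall from 50 to 60 Mb, or 4.00% (0.833 to 11.2). From 60 to 70 Mb 6 of 64 were, or 9.38% (3.52 to 19.3), and from 70 to 80 Mb 3 of 77, or 3.90% (0.811 to 10.97). Each of these intervals held the 9.72% of the other autosomes. From 80 Mb on each block had 15.0% to 24.7%. Boundaries at 10 and 80 Mb, chosen after these values were seen, divide the chromosome into 51 regions with a median height of 62, 308 regions with a median of 41, and 384 regions with a median of 51. In the part from 10 to 80 Mb 21 of the 308 regions were tall (6.82%), and beyond 80 Mb 74 of the 384 were (19.3%). Widths followed the same order, with medians of 1278, 1089 and 1198 bp.

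**Figure D2:**
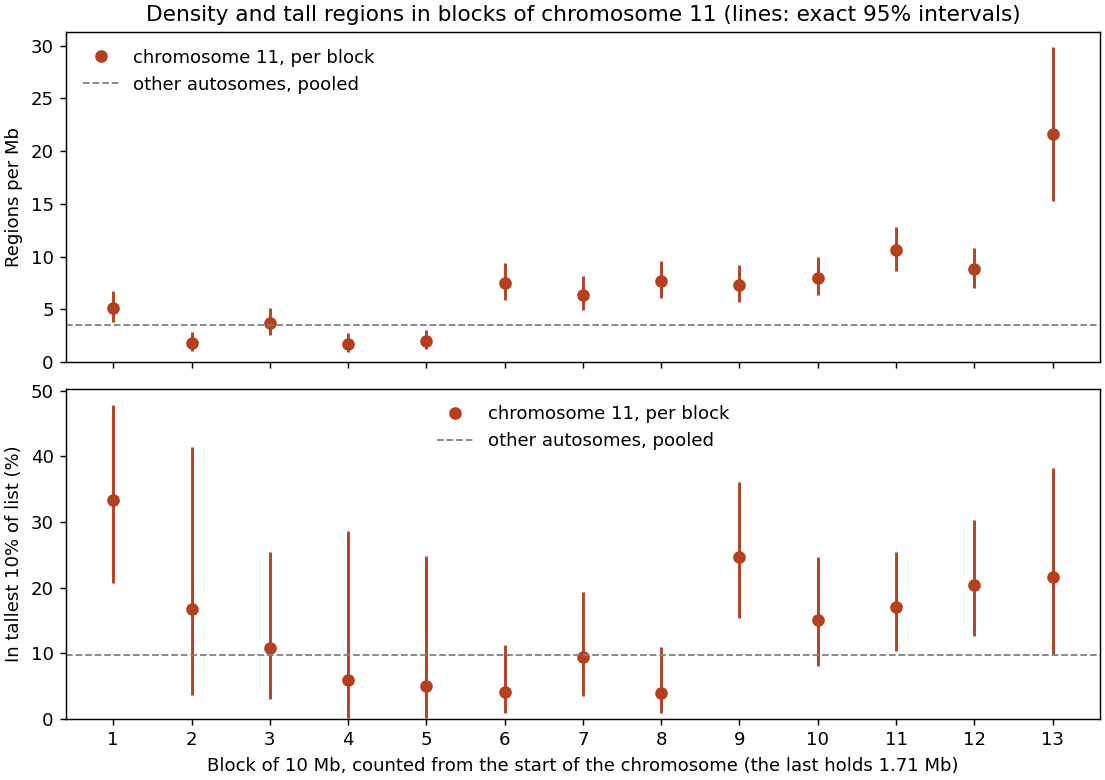
Regions per Mb (top) and share of regions among the tallest 10% of the list (bottom) in 13 consecutive blocks of chromosome 11, each of 10 Mb but the last, with exact 95% intervals. The dashed lines are the pooled other autosomes, 3.47 per Mb and 9.72%; blocks 6 and 8 lie above the first line and below the second.

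By the share of tall regions, the start of chromosome 11 lay above the starts of the other autosomes, and its end was level with the highest of them. Within 10 Mb of its first region chromosome 11 had 55 regions, and 17 of them were among the tallest 10%, or 30.9% (19.1 to 44.8). On the other 18 autosomes, with 12 to 145 regions there, that share ran from 0 to 16.7%, with a median of 7.29%. The highest was 4 of 24 regions, on chromosome 4. Median heights there were 36 to 56 on the other autosomes and 59 on chromosome 11. Within 10 Mb of its last region chromosome 11 had 124 regions, more than any of the others (14 to 97), and 20.2% of them were tall. The highest of the others was chromosome 15, with 17 of 85 (20%), level with chromosome 11. By median height the end did not stand out, at 46.5 against 33.5 to 51 on the others, 3 of which were higher.

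Islands are here the groups of regions between stretches of at least 1 Mb without a region. The first ran from 3023449 to 7324370 and held 47 regions over 4.30 Mb. Its heights ran from 24 to 238 with a median of 64, and 17 of the 47 were among the tallest 10%. Of these 17, 16 lay below the tallest 1%. The exception was 3996073 to 3997215, 1143 bp wide, with a height of 238. Within this island the highest running median over 25 consecutive regions of the whole chromosome was found. It was 84, from 4537121 to 6526742, over heights of 33 to 158. On the other autosomes the highest running medians were 49 to 83, apart from 218 on chromosome 13. The place depended on the number of regions taken. Over 11 regions the highest running median was 109, from 86620248 to 87285439, and 3 other autosomes were higher. Over 51 regions it was 62, from 3023449 to 8911810, and 5 were higher.

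**Figure D3:**
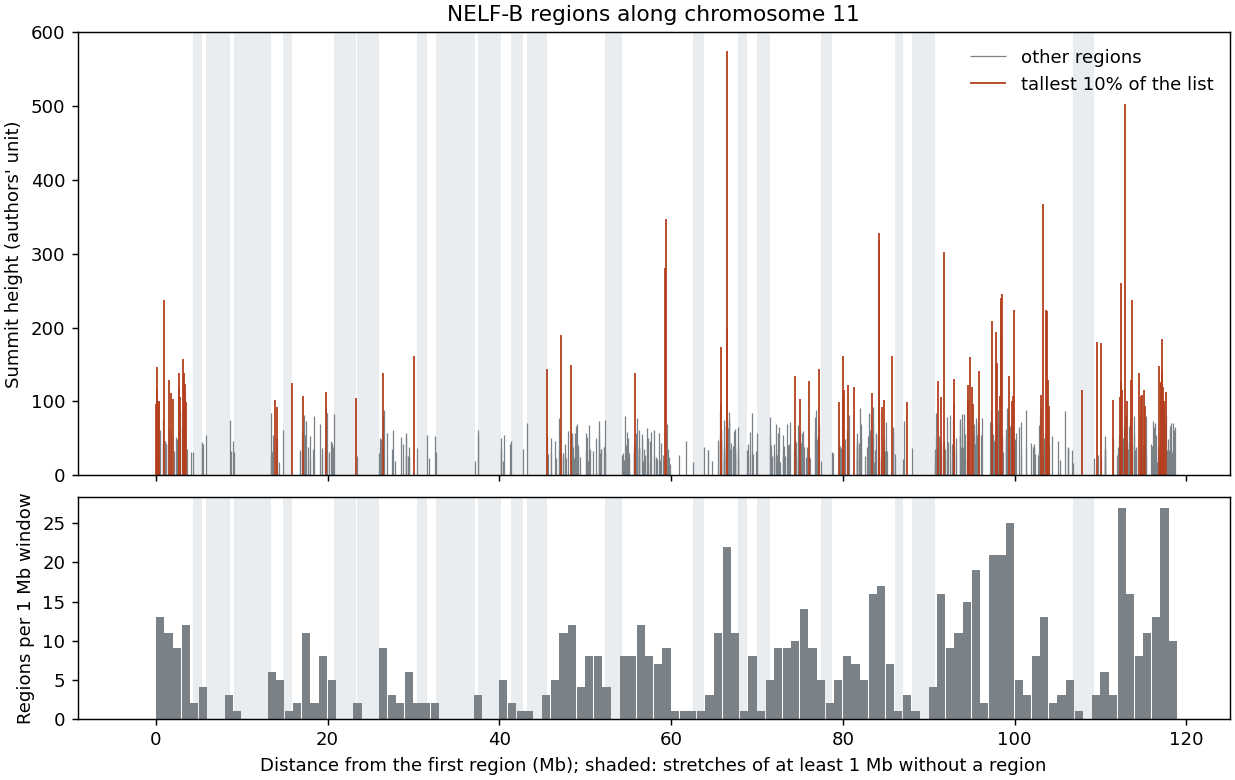
Summit height of each of the 743 regions (top) and number of regions in each 1 Mb window (bottom) against the distance from the first region of chromosome 11, in Mb. Red lines are the 112 regions among the tallest 10% of the list, and shaded bands are the 20 stretches of at least 1 Mb between regions, 12 of which lie in the first 50% of the length.

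The 16 regions among the tallest 1% fell into 8 places more than 1 Mb apart. The region from 69571179 to 69573496 was the tallest, with a height of 575, or 12.2 times the median of the chromosome. It lay in a crowded window of 22 regions with a median height of 41, and its neighbours, 61.3 kb before and 78.2 kb after, had heights of 21 and 36. The second, from 115885067 to 115886631, reached 503. Its neighbours to the left, 10.8 kb away, and to the right, 4.36 kb away, had heights of 24 and 82, and its 1 Mb window of 27 regions had a median of 51 and 5 tall regions. The third was 106361544 to 106363196, with a height of 367. Its neighbours, 11.7 kb before and 111 kb after, had heights of 29 and 51, but its window of 13 regions had a median of 83 and 5 tall regions. In all 3 cases the regions directly on either side were outside the tallest 10%.

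Some of the 10 tallest lay directly beside each other. A pair at 62363236 to 62365572 and 62415716 to 62417085 had heights of 281 and 347 and was 50.1 kb apart, with no region between. Tall regions were rare there: 3 of the 55 regions between the empty stretches on either side, the pair included, were among the tallest 10%. Heights of 328, 319 and 297 belonged to regions from 87235540 to 87263577, described below. The region from 94797090 to 94798727 had a height of 303 and no region for 281 kb before it. The last of the 10, from 115375282 to 115376219, reached 260 with a width of 938 bp, below the lower quartile of the chromosome. It was the narrowest of the 16 regions in the tallest 1%, whose median width was 1646 bp.

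Tall regions followed each other directly in 4 stretches, defined as 3 or more consecutive regions all among the tallest 10%. The other autosomes had 17 such stretches in all and at most 4 each, on chromosome 8. Per 100 regions this was 0.538 on chromosome 11 (0.147 to 1.38) and 0.209 elsewhere (0.122 to 0.334), so the intervals overlapped.

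The longest had 7 regions in 51.1 kb, from 87235540 to 87286631. In order, their heights were 328, 184, 297, 319, 251, 109 and 94. Heights were thus greatest in the first 5 and lower in the last 2, which were separated by only 58 bp, with summits 672 bp apart. The region before the stretch, 16.97 kb away, had a height of 87, and the next after it, 166 kb on, had 19. The 1 Mb window around it, from 87000001, held 9 tall regions among 17 and had a median height of 93. Of the stretches on the other 18 autosomes only 1, with 13 regions on chromosome 13, was longer.

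The second in length had 4 regions in 34.5 kb, from 101487611 to 101522084, with heights of 184, 240, 235 and 246. These were broad as well as tall. Widths ran from 1789 to 3491 bp, the first and the last of the 4 were the widest and the third widest regions of the chromosome, and 30.1% of the stretch was covered. Heights changed abruptly at both ends, with 54 at 19.8 kb before and 49 at 4.35 kb after. The middle pair, 101503227 to 101505015 and 101505185 to 101507085, was separated by 169 bp, but the summits were 2784 bp apart because each lay towards the outer side of its region.

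The other 2 stretches had 3 regions each and were lower. From 83084476 to 83113154 the heights were 161, 108 and 115, and the first of these was 2673 bp wide. From 3023449 to 3167192, the first 3 regions of the chromosome, the heights were 96, 116 and 147. These 3 were spaced 62.8 to 77.1 kb apart, farther than in the other stretches.

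**Figure D4:**
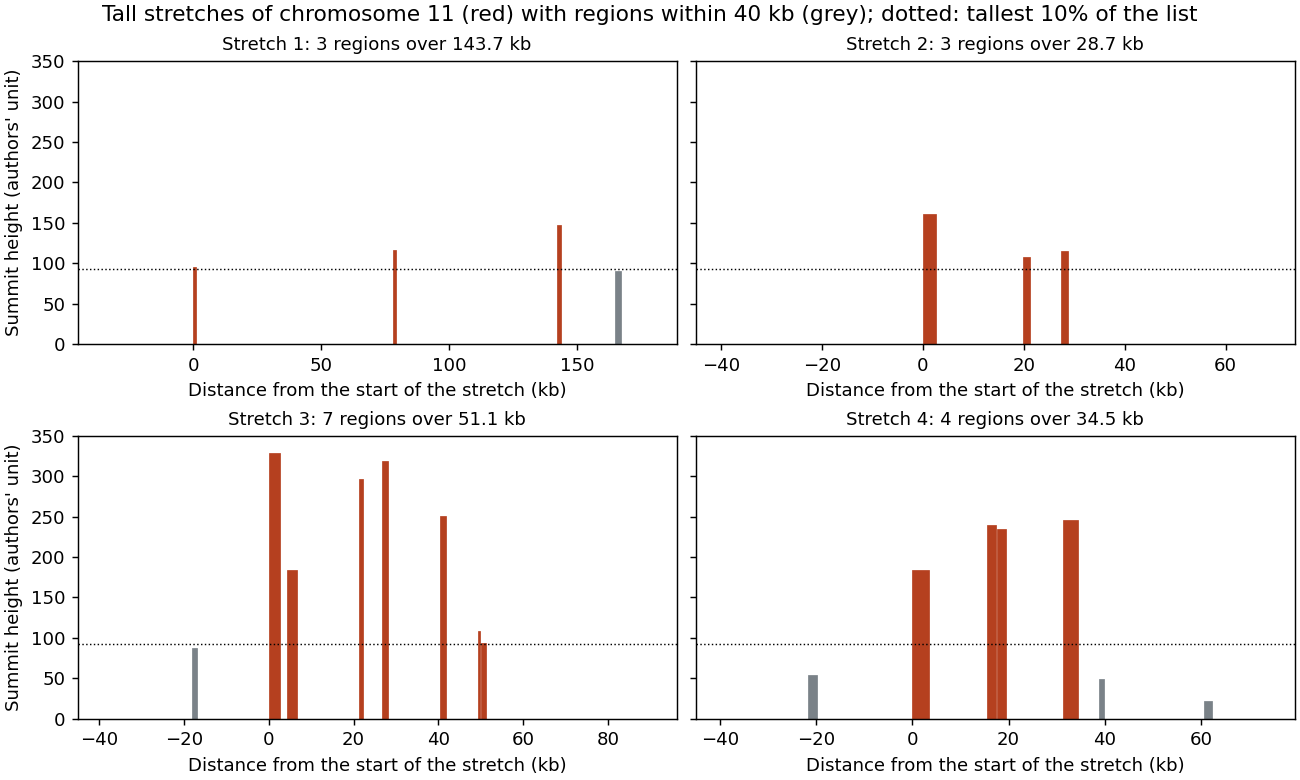
The 4 tall stretches of chromosome 11 (red) with the regions within 40 kb on either side (grey): summit height against the distance from the start of the stretch in kb, with each bar as wide as its region. The dotted line is the threshold of the tallest 10% of the list, a height of 93; the stretches of 7 and 4 regions reach 328 and 246 and have regions of 87 or less beside them.

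These 17 regions accounted for part of the excess of tall regions. Without them, 95 of 726 regions on chromosome 11 were among the tallest 10%, or 13.1% (10.7 to 15.8). The other autosomes without their own stretches had 8.98% (8.36 to 9.62). For the tallest 1%, the shares without stretches were 1.24% (9 of 726) and 0.669% (54 of 8076). Their ratio was 1.85, where it was 2.37 with the stretches. With tall regions at most 1 Mb apart counted once, the ratio for the tallest 1% was 1.65. The block from 80 to 90 Mb depended on them most, with 18 of 73 tall regions and 8 of 63 (12.7%) without the stretches. The first block was less affected, with 14 of 48 (29.2%).

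Regions on chromosome 11 were close together. The median gap between consecutive regions was 53.0 kb (47.0 to 63.4), against 74.4 kb (71.1 to 77.4) elsewhere. Another region lay within 10 kb of 166 regions, or 22.3% (19.4 to 25.5), where the whole list had 17.2% and the other autosomes 16.9% (16.1 to 17.7). Chromosomes 17 and 19, the next in density, had 23.4% (19.8 to 27.4) and 25.5% (20.7 to 30.7). Close neighbours were therefore frequent on chromosome 11 but not more so than on these 2. Within 50 kb the share was 70.8% (67.4 to 74.0) against 59.0% (57.9 to 60.0).

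The difference in spacing was clearest at the long end. Gaps of 500 kb to 1 Mb made up 3.50% of the 742 gaps (2.30 to 5.09) and 6.36% (5.84 to 6.92) elsewhere. Gaps of 1 Mb or more made up 2.70% (1.65 to 4.13) against 6.22% (5.70 to 6.76). In each shorter class the intervals overlapped. At 20 to 50 kb, for example, the share was 24.5% (21.5 to 27.8) against 20.9% (20.05 to 21.8). Gaps under 1 kb were only 3 of 742, and 2 of these 3 lay in the tall stretches described above.

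**Figure D5:**
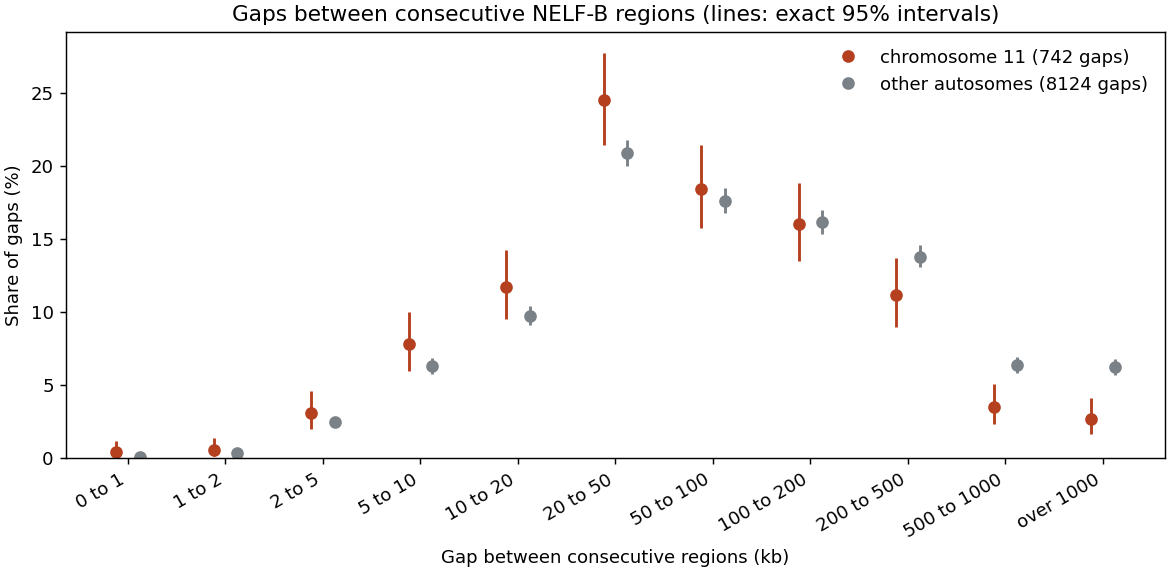
Share of the gaps between consecutive regions that fall in each length class, for chromosome 11 (red, 742 gaps) and the other autosomes (grey, 8124 gaps), with exact 95% intervals. Gaps of 1 Mb or more make up 2.70% of the gaps on chromosome 11 and 6.22% elsewhere.

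Windows of 1 Mb showed the same filling. Of 122 windows on chromosome 11, 28 held at least 10 regions, or 23.0% (15.8 to 31.4), against 8.88% (7.76 to 10.1) elsewhere. These 28 windows held 428 regions, 57.6% of the chromosome. Yet 50% of the regions took the fullest 18.9% of the windows (23 of 122), and 11.3% to 18.7% on the others. Chromosome 18, with 17 of 91 windows, was close to chromosome 11. By the share of regions in windows of at least 10, chromosome 11 ranked 3 of 19.

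The fullest windows began at 115000001 and 120000001, with 27 regions each. Windows from 102000001 with 25, from 69000001 with 22, and from 100000001 and 101000001 with 21 each followed. These 6 windows held 2 to 8 tall regions each, and their greatest heights ran from 184 to 575. By median height they did not stand out, at 39 to 56. Across the chromosome, however, regions in windows of at least 10 had a median height of 51 (47 to 54), and regions in windows of at most 3 had 39 (34 to 50), a ratio of 1.31 with overlapping intervals. Elsewhere these medians were 47 (46 to 48) and 41 (40 to 43). In windows of at least 10, 18.0% of the regions were tall (14.5 to 22.0), against 12.2% (11.04 to 13.4) in equally full windows of other autosomes, a ratio of 1.48. In windows of 4 to 9 the shares were 10.5% (6.96 to 15.0) and 8.59% (7.68 to 9.56), a ratio of 1.22. In windows of at most 3 they were 13.4% (6.33 to 24.0) and 7.27% (6.00 to 8.71), a ratio of 1.85 that rests on 9 of 67 regions. The excess thus showed no order by how full the window was, and only in the fullest class did the intervals not overlap.

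Empty sequence was scarcer than elsewhere. Of the 122 windows 22 held no region, or 18.0% (11.7 to 26.0), against 32.0% (30.1 to 33.9) on the other autosomes and 19.4% (10.4 to 31.4) on chromosome 19, the next lowest. Between regions, stretches of at least 1 Mb without a region numbered 20 and added up to 39.7 Mb, or 32.6% of the length. The other autosomes had 37.6% to 59.8%. The 3.02 Mb before the first region are not counted among these stretches, on which the count, the sum and the order of length rest, but they do hold 3 of the 22 empty windows. The longest gap, 4567 kb, was shorter than the longest gap on 15 of the other 18 autosomes. Unmappable sequence was not excluded, and its part in these values was not tested.

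Of these 20 stretches, 12 lay in the first 50% of the length, with 28.4 Mb between them. The longest ran from 35648397 to 40215586. The second, of 4275 kb, ran from 12132340 to 16407318, and the third, of 2796 kb, from 8911811 to 11708257. The fourth was the only one of the 5 longest in the distal part, 2679 kb from 91066706 to 93746002. The fifth, of 2629 kb from 40569355 to 43198238, was divided from the longest by an island of only 3 regions, with heights of 19 to 61.

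The empty stretches cut the chromosome into 21 islands of very unequal size. The 8 islands with at least 40 regions held 640 of the 743 regions, or 86.1%. The 11 islands with at most 11 regions held 52. The largest spanned 16.1 Mb, from 93746003 to 109857499, with 182 regions, a median height of 52.5 and 29 regions among the tallest 10% (15.9%). The next, from 112334451 to the last region at 121710006, held 124 regions, a median of 46.5 and 25 tall regions (20.2%). Islands of like density differed in height. From 74536962 to 80443401, at 10.3 regions per Mb, 4 of 61 regions were tall (6.56%, 1.82 to 15.9), and from 81819972 to 89049332, at 9.41 per Mb, 17 of 68 were (25%, 15.3 to 37.0). These 2 intervals overlapped slightly. The second island holds the tall stretches from 83084476 and from 87235540, with 3 and 7 of its 17 tall regions. The 2 islands are neighbours, with 1377 kb of empty sequence between them.

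Width went with height on chromosome 11. Among the 186 lowest regions, with heights of 16 to 33, the median width was 996 bp, and among the 186 highest, with heights of 72 to 575, it was 1359 bp. The rank correlation of these 2 measures, Spearman's rho, was 0.45 over 743 regions and 0.41 over the other autosomes. Points share 1 library, and both values come from the same reads, so rho only describes the list. The widest regions were not always tall. The widest and the third widest, in the stretch from 101487611, had heights of 184 and 246. The second widest, 3267 bp from 97170018 to 97173284, had a height of 63. Those ranked 4 and 5 in width, from 86569901 to 86572761 and from 101412650 to 101415482, had 70 and 68. Regions wider than 2 kb numbered 42 of the 743, or 5.65%, against 4.05% on the other autosomes. Of these 42, 16 were among the tallest 10% of the list and 26 were not. Among all regions of the chromosome 15.1% were that tall.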

How the data were processed

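ChIP-seq of NELF-B in mouse embryonic fibroblasts gave 1 deposited list. Per the file headers it holds a peak track, an interval track and an active region track, with 9095 entries in each, and the last 2 were identical. The peak track gives each summit a score set by the authors, in a unit not given in the sources used here. The peak caller MACS is named in the submitters' processing notes. Its version, aligner, build, threshold and use of the input were not given in the sources used here. Depth is unknown.

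Intervals of chromosome 11 were joined to summits by file order. Starts were raised by 1, and summits are as deposited; 736 of the 743 were multiples of 16 bp. Windows count regions by summit, from position 1 to the end of the last region. Gaps run from edge to edge. Genes come from RefSeq for GRCm38.p6. On 7 autosomes 88 regions start past the last gene of that table, so it gave gene numbers only.

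Poisson, Clopper-Pearson and order-statistic (medians) 95% intervals were computed with Python 3.11.15, NumPy 2.4.6, SciPy 1.17.1 and pandas 2.3.3. Figures used matplotlib 3.10.9. Counting steps were tested on simulated layouts. The rule named the 10 tallest regions, the 5 widest, the 5 closest pairs, the 5 fullest windows with ties, the 5 longest empty stretches, all tall stretches and the highest running median. Islands and the blocks of 10 Mb were added. Members and lists were chosen with earlier results of these data known.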

Additional observations from a re-analysis of the deposited data

How the results depend on the processing

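For 19 results 117 alternatives were run. In 106 of them the value stayed inside its interval or tolerance (0.1 for a correlation, 1.5 times for a count), in 9 it moved and in 2 its direction turned. Of the 117, 72 left out 1 of the 18 comparison chromosomes, which leaves most of the comparison unchanged. None of these 72 moved, so the 9 and the 2 all came from the other alternatives. After seeing the data, 8 alternatives were chosen. The median height ratio of 1.07 was 0.977 for the first 50% of the regions and 1.17 for the second 50%. The share with a neighbour within 10 kb, 1.32 times that elsewhere, was 0.922 times that of chromosomes 17 and 19. The excess in tall regions, 1.55, was 1.85 for the tallest 5% and 1.29 for the tallest 20%. Regions per 100 genes were 26.9 for the taller 50% of the list, by construction. Tall stretches numbered 16 for the tallest 20% and 17 for at least 2 in a row. Empty stretches numbered 46 from 500 kb and 9 from 2 Mb. The ratio of heights in full and sparse windows, 1.31, was 1.17 in 2 Mb windows. Apart from the changed thresholds, the cause was not tested. Leaving out each comparison chromosome gave 1.70 to 1.80 for density, 1.04 to 1.07 for median height, 1.01 to 1.02 for median width and 1.502 to 1.66 for the tallest 10%. No paired analysis was possible because each group has 1 library, which also left no replicate to leave out. Unknown depth limits every height.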

Other observations

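Heights of consecutive regions on chromosome 11 were most alike at short range. Over all 742 pairs of neighbours Spearman's rho was 0.07. For the 88 pairs less than 10 kb apart it was 0.43, and for 81 such pairs left without the tall stretches it was 0.33. The same values on the other autosomes were 0.19 over 743 pairs and 0.16 over 722. For the 269 pairs 10 to 50 kb apart rho was 0.03, and for the 385 pairs farther apart it was 0.00. Pairs share a library and many share a region, so these values are descriptions. Beside the 2 closest pairs, 58 and 169 bp apart, the next were 97560710 to 97562474 with a neighbour at 985 bp (heights 63 and 54), 87235540 to 87238283 at 1506 bp (328 and 184), and 68883633 to 68884798 at 1614 bp (96 and 174). How the peak caller joins or splits close pieces is not known, and its part was not tested.

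Regions at the edge of empty stretches were not taller than the rest. The 39 regions that border a stretch of at least 1 Mb had a median height of 37 (32 to 54), against 48 (45 to 51) for the other 704. Of the 39, 4 were among the tallest 10% of the list, or 10.3% (2.87 to 24.2), against 15.3% (12.8 to 18.2) of the 704. Elsewhere these shares were 7.79% (6.17 to 9.68) and 9.97% (9.29 to 10.7). On the other autosomes the medians were 42 (41 to 44) and 45 (44 to 45). Only 6 regions of chromosome 11 had no other within 500 kb, or 0.808% (0.297 to 1.75), against 2.92% (2.57 to 3.31) elsewhere. Their heights ran from 18 to 125. Of the 6, 2 were tall, where 15.1% of all regions of the chromosome were. These 2 were 18918518 to 18921138 with 125 and 110926847 to 110928095 with 115, each alone in its 1 Mb window.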
